A study of Mus musculus with 2 samples.

Results

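Transcripts of steroid-converting reductases and dehydrogenases were compared between high-fat and normal feeding in the liver and the adipose tissue of mice. The set holds 10 genes, of 20886 genes named on the arrays, 20884 of which had a usable spot on the liver array: Akr1c6, Akr1c12, Akr1c13, Akr1c14, Akr1c18, Akr1c19, Akr1c20, Hsd3b5, Hsd11b1 and Srd5a1. They were selected on their gene family and on the high-fat over normal-diet ratios of these same arrays, so those ratios are given as a description and are not tested. Probes were found through their RefSeq transcript accession. That gave 1 probe for each of 9 genes, and no probe was matched to Akr1c20, which has no values here.

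All animals were male wild-type C57BL/6J mice, and the feeding lasted 4 weeks. Total RNA of 10 livers and of 10 adipose tissues was combined by diet. The sources used here do not give the fat depot, the age of the mice or how many animals went into each pool. A single array was run per tissue, with Cy3 (green) on RNA from normal diet and Cy5 (red) on RNA from high-fat feeding. Neither a replicate array nor a dye swap is among the data. Spread between animals was therefore not measured, no p-value is given, and the dye and the diet cannot be told apart for a single probe, nor can the array and the tissue. In pooled tissue, fewer cells of a type and less RNA per cell cannot be told apart either.

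Steroid hormones are switched on and off in their target tissues by enzymes that move hydrogen to or from a ketone, a hydroxyl group or a ring double bond. Aldo-keto reductases of the Akr1c family reduce steroid ketones with NADPH and often lower the hormone's potency. Hsd11b1 works in the other direction on glucocorticoids, turning the inert keto form of corticosterone back into the active hormone, and liver and fat are its main sites. Srd5a1 saturates the first ring of testosterone, progesterone and corticosterone. Liver is the chief organ of steroid clearance, and several of these genes are expressed there in a sex-dependent way.

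Of the 10 genes, 9 were measured (well above background in both channels) on the liver array and 8 on the adipose array. The median scanner error of a log2 ratio was 0.21 over all genes of either array, and it covers the spot's pixels and the scanner's error model only. Markers of other tissues differed between the diet pools. On the adipose array 12 of 12 small intestine markers were at least 2-fold higher in the high-fat pool (median log2 ratio 5.01, summed log2 level 13.57 on normal diet and 19.28 on high fat). Of 15 hepatocyte markers there, 10 were at least 2-fold lower and 3 higher (median -4.06, summed level 17.99 and 16.99). Most of both sums came from Trf (17.32 and 16.54, log2 ratio -0.78), so they say little about the rest of the list. Exocrine pancreas markers were lower in 10 of 12 (14.24 and 12.17), and male reproductive tract markers in 5 of the 6 measured of 10, with 1 higher (16.39 and 15.4). The higher one was Spink1 (10.09 and 15.1), which made up most of the high-fat sum of that list. Skeletal muscle markers were at least 2-fold lower in 9 of 11 measured on the liver array (15.81 and 14.35) and in 5 of 9 on the adipose array (14.28 and 12.49). Counts of measured markers did not separate the labelled tissues, since all 15 hepatocyte markers were measured on both arrays. Their summed level was higher on the liver array (20.38 and 20.74) than on the adipose array. Adipocyte markers, 12 of 12 measured in adipose tissue and 10 of 12 in liver, summed to 19.95 and 19.77 in adipose tissue. In liver they summed to 13.69 and 13.34. In the high-fat adipose pool the summed level of small intestine markers (19.28) was close to that of adipocyte markers.

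In liver, 3 of 9 measured genes were at least 2-fold higher in the high-fat pool and none was at least 2-fold lower. The 3 were Akr1c18, Hsd3b5 and Akr1c6, and the other 6 lay between -0.28 and 0.30 on the log2 scale. Over all 13642 genes measured on this array, 0.491% reached 2-fold upward and 0.579% reached it downward. Since the genes were chosen on this array, nothing is read from that difference. The median log2 ratio was -0.05 for the 9 genes and 0.01 for all genes. On this array hepatocyte markers had a median of 0.35 and skeletal muscle markers of -1.48. Of 12 small intestine markers 3 were measured, all above 0 (median 0.64, summed level 15.12 and 15.69): Fabp2 at 0.57, Apoa4 at 0.64 and Reg3b at 1.35, the last between 0.11 and 2.87 in the alternatives. Most of the summed level came from Fabp2 and Apoa4, at 14.93 and 11.99 on normal diet, with Reg3b at 6.98. Clca1, Muc2, Cdx1 and Cdx2 were not above background in either channel. When 1 channel above background was enough, 8 were measured and all 8 were above 0 (median 0.52). The genes added this way were above background in 1 pool only, so the sign of their ratios is partly set by that filter. With no filter all 12 had a ratio and 10 were above 0 (median 0.31). Of 10 measured adipocyte markers 1 was at least 2-fold lower and none at least 2-fold higher (median -0.06, summed level 13.69 and 13.34). The lowest were Slc2a4 at -1.07 and Plin4 at -0.93, while 4 of the 10 were above 0, the highest of them Cfd at 0.41. The part of these marker genes' tissues in the ratios of the enzymes was not tested.

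**Figure D1:**
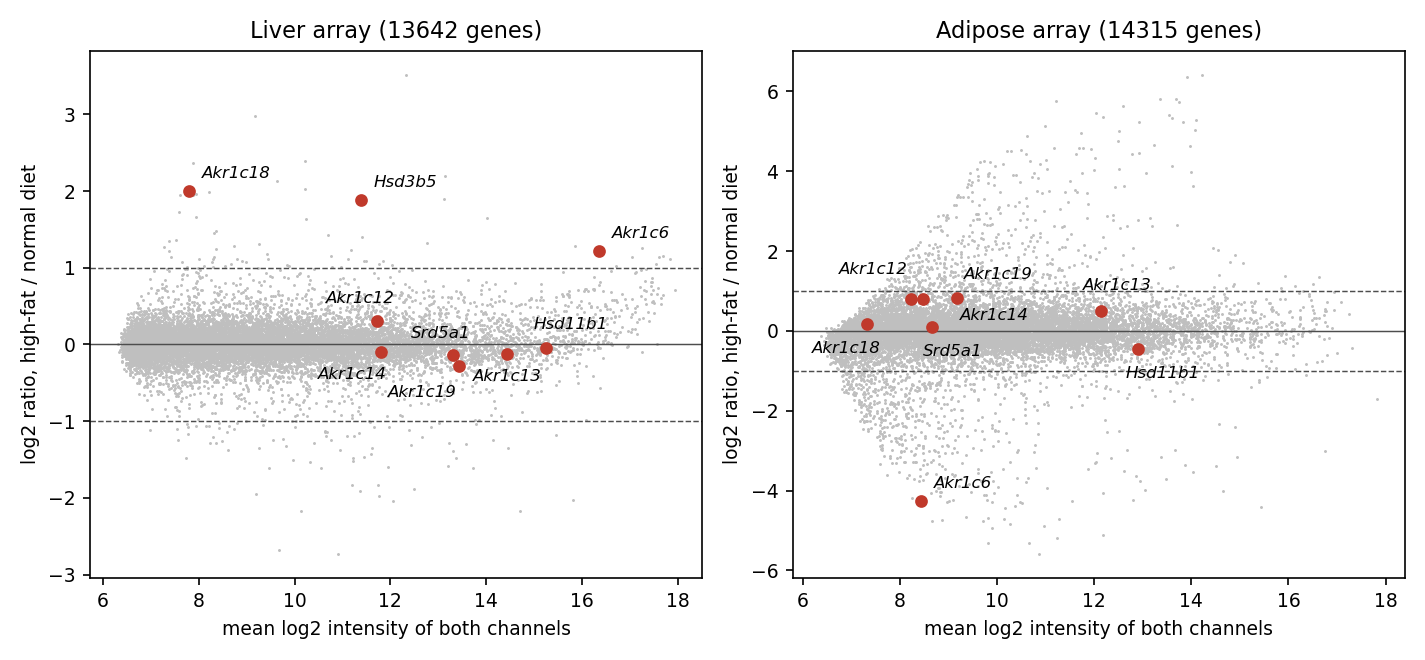
Log2 ratio of the high-fat over the normal-diet pool (y axis) against the mean log2 intensity of both channels (x axis) for every measured gene of the liver array (left) and the adipose array (right). Grey points are all genes, red points the steroid-converting enzymes, and dashed lines mark 2-fold. Akr1c18 (2.00), Hsd3b5 (1.89) and Akr1c6 (1.22) lie above the upper line in liver, and Akr1c6 (-4.26) lies below the lower line in adipose tissue.

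Akr1c18 inactivates progesterone by reducing its side-chain ketone. Its probe gave a median pixel signal of 76 in the normal-diet liver channel, over a local background of 27, and of 550 in the high-fat channel, over 59. The log2 ratio after normalization was 2.00 (4.01-fold, scanner error 0.38), the eighth highest of the array, from a level of 7.07 to one of 9.07. The normal-diet level is less than 1 log2 unit above the lowest level of any probe well above background in that channel (6.19). The ratio fell to 0.24, under 2-fold, when local backgrounds that the scanner software marks as outliers were kept as deposited. In the other 8 alternatives it stayed past 2-fold, up to 3.33 with the software's own log ratio. The direction was the same in all 9, but the size was not. Alternatives that change the filter on dim probes or the choice of probe could not move this ratio. The gene's only probe was above background in both channels.

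Hsd3b5 encodes a reductase of the Hsd3b family that is expressed in the liver of male mice. Its signal was 1016 on normal diet and 6928 on high fat, over local backgrounds of 31.5 and 48.5. The log2 ratio was 1.89 (3.70-fold, scanner error 0.27), the 14th highest of 13642. It was past 2-fold in all 9 alternatives, from 1.41 with local backgrounds as deposited to 2.35 with median centring. As for Akr1c18, those on the filter and the choice of probe return the reported value by construction. Of the 3 liver genes past 2-fold, Hsd3b5 is the only one that kept that size in each alternative run.

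Akr1c6 encodes an estradiol dehydrogenase of mouse liver that also interconverts androgens. It was bright on the liver array, with a signal of 36184 on normal diet and 194312 on high fat. The log2 ratio was 1.22 (2.33-fold, scanner error 0.22), the 34th highest. Genes as bright as this one were shifted upward as a whole: the median ratio was 0.26 over the 107 genes of mean log2 intensity between 16 and 17. Subtracting the running median of genes of like brightness gave Akr1c6 a ratio of 1.04, and the software's log ratio was 0.98, just under 2-fold.

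The bases upstream of these 3 genes are shown because they are the ones past 2-fold in liver. Each line gives the 250 bases before the annotated start from RefSeq (build GRCm38.p6), 5′ to 3′ on the gene's own strand. Capitals mark matches on either strand to any of 6 motifs, none of which overlaps another match. They are the STAT5 site TTCNNNGAA and the D-box TTATGTAA, which binds DBP, TEF and HLF. They also include the E-box, spelled CACGTG, which binds the clock activators. The glucocorticoid receptor half-site was searched as AGAACA. Forkhead factor sites were searched as TGTTTAC, and the box of the basal promoter that binds TBP was searched as TATAAA.
Akr1c18 (chr13:4150647-4150896, minus strand): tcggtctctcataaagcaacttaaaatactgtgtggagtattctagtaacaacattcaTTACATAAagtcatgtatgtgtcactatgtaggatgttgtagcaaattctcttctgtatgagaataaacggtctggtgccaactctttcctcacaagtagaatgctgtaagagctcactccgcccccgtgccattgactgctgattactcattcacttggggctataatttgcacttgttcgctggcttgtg
Hsd3b5 (chr3:98645535-98645784, minus strand): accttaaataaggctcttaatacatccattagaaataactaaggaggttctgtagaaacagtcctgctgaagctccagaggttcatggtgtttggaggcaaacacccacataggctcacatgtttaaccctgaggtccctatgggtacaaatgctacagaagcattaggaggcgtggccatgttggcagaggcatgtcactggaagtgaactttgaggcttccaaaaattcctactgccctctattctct
Akr1c6 (chr13:4434093-4434342, plus strand): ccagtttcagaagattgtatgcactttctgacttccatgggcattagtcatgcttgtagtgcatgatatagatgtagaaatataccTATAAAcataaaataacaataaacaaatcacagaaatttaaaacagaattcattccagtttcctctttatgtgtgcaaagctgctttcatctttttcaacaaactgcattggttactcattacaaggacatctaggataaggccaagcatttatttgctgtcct
Akr1c18 has a D-box match, read TTACATAA on the printed strand, at positions -192 to -185 from its start, and 0.819% of 32851 promoter windows of this length have one. Akr1c6 has a TATAAA match at positions -164 to -159, a motif found in 12.4% of windows. Hsd3b5 has a match to none of the 6. These are matches of letters, the motifs were picked with the liver ratios known, and binding was not measured.

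The remaining 6 liver genes lay within 2-fold, and none exceeded 2 times its own scanner error. Akr1c12 and Akr1c13 are close relatives whose enzymes accept a broad range of steroid and other substrates. Akr1c12 had signals of 2227 and 5077 on normal diet and high fat and a log2 ratio of 0.30 (scanner error 0.21). Akr1c13 had signals of 16126 and 30734 and a ratio of -0.13 (error 0.20). Akr1c14, which reduces the ring ketone of dihydrotestosterone and related steroids, had signals of 2722 and 4718 and a ratio of -0.10 (error 0.20). Akr1c19, a family member with less well known substrates, had 8722 and 14212 and a ratio of -0.28 (error 0.21). The red channel was the brighter one over the whole array, and loess takes that excess out, so raw signals that differ can give a ratio near 0.

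Hsd11b1 and Srd5a1 were also near 0 in liver. Hsd11b1 is the one gene of the set printed many times on the array. Its 9 usable liver spots had signals of 23342 to 28594 on normal diet and 49494 to 60914 on high fat, and log2 ratios of -0.06 to -0.02, with a mean of -0.05 ± 0.013 (SD over spots, n = 9 spots of 1 hybridization). Over 259 probes with at least 9 spots on that array the median SD over spots was 0.047, so spot-to-spot noise is small beside the 2-fold threshold. Srd5a1 had signals of 7567 and 13572 and a ratio of -0.13 (error 0.20). With median centring, which leaves the median of the genes measured on the liver array at 0.32, Akr1c13, Akr1c14, Akr1c19, Hsd11b1 and Srd5a1 had ratios above 0 (0.29 to 0.66). Relative to that median they lay between -0.03 and 0.34, so no direction is given for these 5 genes.

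In adipose tissue Akr1c6 was at least 2-fold lower in the high-fat pool, and no gene of the set was at least 2-fold higher. Of all 14315 genes measured there, 5.13% were at least 2-fold lower and 4.23% at least 2-fold higher. The median log2 ratio was 0.34 for the 8 genes and -0.01 for all. Beyond 2 times their own scanner error, 4 of 8 were higher (Akr1c12, Akr1c13, Akr1c14 and Akr1c19) and 2 lower (Akr1c6 and Hsd11b1), where 13.7% of all genes were higher and 13.7% lower by that measure. The count past 2-fold upward depends on the normalization: it was 3 under the software's log ratio and 4 under median centring.

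Akr1c6 had an adipose signal of 758 on normal diet and of 151 on high fat, over local backgrounds of 29 and 56. Its log2 ratio was -4.26 (19.2-fold lower, scanner error 0.56), the 24th lowest of 14315, and between -5.51 and -3.67 in the 9 alternatives. The high-fat level, 6.06, is close to the lowest level of any probe above background in that channel (5.66). Most hepatocyte markers moved the same way, with 10 of 15 at least 2-fold lower and a median of -4.06. In the same list Apob (1.62), Hnf4a (1.9) and Apoa1 (2.08) were at least 2-fold higher. Whether liver RNA in the normal-diet pool accounts for the Akr1c6 ratio was not tested.

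Akr1c12, Akr1c14 and Akr1c19 had near-equal adipose ratios. Akr1c12 went from a signal of 110 to 760.5 and had a log2 ratio of 0.81 (scanner error 0.24). Akr1c14 went from 131 to 929, with a ratio of 0.79 (error 0.23). Akr1c19 went from 197.5 to 1632, with a ratio of 0.82 (error 0.23). All 3 were dim on normal diet and passed 2-fold only under the software's log ratio (1.05 to 1.23) and under median centring (1.32 to 1.60). Akr1c13, brighter at 1614 and 12537, had a ratio of 0.50 (error 0.21) and passed 2-fold only with median centring (1.54), where the median of all genes was 0.69. The 12 small intestine markers were higher in the same pool by a median of 5.01, and their part in these ratios was not tested.

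The upstream sequences of Akr1c13, Akr1c12 and Akr1c19 are shown because the first pair has the most alike windows of the set and Akr1c19 lies between them on the chromosome. Windows, build and capitals are as above.
Akr1c13 (chr13:4190937-4191186, plus strand): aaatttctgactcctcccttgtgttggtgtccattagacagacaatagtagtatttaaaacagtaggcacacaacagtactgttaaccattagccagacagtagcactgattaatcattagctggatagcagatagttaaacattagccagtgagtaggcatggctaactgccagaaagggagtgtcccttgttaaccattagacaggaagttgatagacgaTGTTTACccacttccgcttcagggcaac
Akr1c12 (chr13:4279400-4279649, minus strand): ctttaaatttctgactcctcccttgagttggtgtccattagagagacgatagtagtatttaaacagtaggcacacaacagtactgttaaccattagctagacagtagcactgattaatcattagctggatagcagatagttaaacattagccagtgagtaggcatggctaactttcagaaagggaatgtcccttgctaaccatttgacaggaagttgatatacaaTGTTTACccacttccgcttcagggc
Akr1c19 (chr13:4233490-4233739, plus strand): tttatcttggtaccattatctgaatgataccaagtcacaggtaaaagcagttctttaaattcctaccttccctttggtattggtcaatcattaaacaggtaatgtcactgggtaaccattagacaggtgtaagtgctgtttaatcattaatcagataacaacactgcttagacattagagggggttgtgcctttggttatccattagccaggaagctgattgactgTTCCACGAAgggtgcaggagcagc
Aligned end to end, the Akr1c12 and Akr1c13 windows had 235 identical bases over 254 columns (92.5%). The Akr1c19 window was 59.0% identical to that of Akr1c13 and 56.9% to that of Akr1c12, and the median over all 36 pairs of the 9 windows searched was 46.3%. Akr1c12 and Akr1c13 share a TGTTTAC match, at positions -25 to -19 and -28 to -22, and Hsd11b1 has one farther upstream (-138 to -132), while 3.17% of all windows hold this motif. Akr1c19 has a TTCNNNGAA match, TTCCACGAA, at positions -24 to -16 (7.02% of windows). No member window holds CACGTG (6.02% of all) or AGAACA (16.1%). Akr1c12 and Akr1c13, with the most alike upstream bases of the set, had log2 ratios of 0.30 and -0.13 in liver and of 0.81 and 0.50 in adipose tissue. Akr1c14, whose adipose ratio of 0.79 is close to that of Akr1c12, has a window 43.9% identical to it.

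Hsd11b1, printed 10 times, was slightly lower in the high-fat adipose pool. Its spots had signals of 2836 to 4338 on normal diet and 11827 to 17830 on high fat. The log2 ratios ran from -0.47 to -0.40, with a mean of -0.45 ± 0.026 (SD over spots, n = 10 spots of 1 hybridization). All spots lay on the same side of 0, but they share 1 pair of pools and 1 dye assignment. The direction rests on the normalization, since median centring gave 0.64, which is -0.06 relative to the median of all genes. H6pd, whose enzyme supplies the NADPH that Hsd11b1 uses, was at -0.37 on this array and at -0.62 on the liver array. Under median centring it was at -0.02 in liver and 0.78 in adipose tissue, where the medians of all genes were 0.32 and 0.69.

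Akr1c18 and Srd5a1 were within their scanner error of 0 on the adipose array. Akr1c18 had signals of 83 and 263 and a log2 ratio of 0.18 (error 0.26). Srd5a1 had 182 and 839 and a ratio of 0.09 (error 0.21). Hsd3b5 was not well above background in either adipose channel, with signals of 62 and 58.5 over backgrounds of 26 and 51, and has no ratio there.

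**Figure D2:**
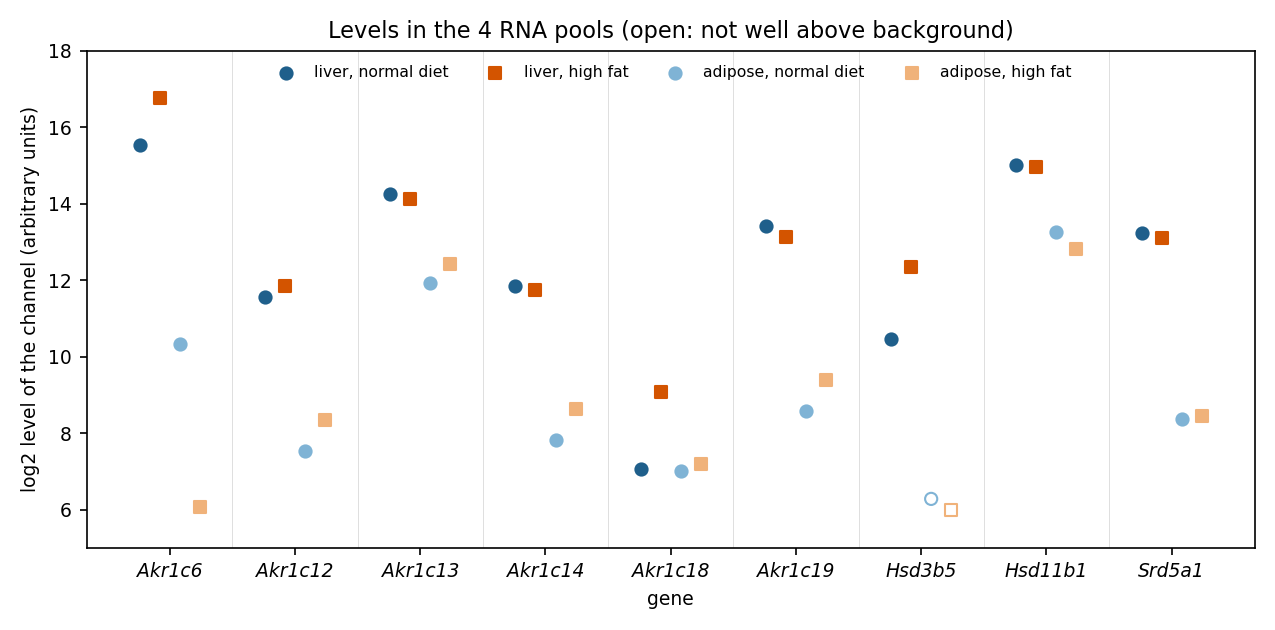
Log2 level (y axis, arbitrary units) of 9 steroid-converting enzymes in the 4 RNA pools, with circles for normal diet and squares for high fat, dark shades for liver and light shades for adipose tissue. Each point is 1 channel of 1 array, and open symbols were not well above background. Levels are compared within a gene: all genes but Akr1c18 on normal diet are higher on the liver array.

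Most of these genes were far brighter on the liver than on the adipose array. Levels in this comparison are log2 channel levels after the 2 arrays were given the same distribution of mean intensity. On normal diet 7 of the 8 genes measured on both arrays were at least 2-fold higher in liver, where 16.2% of 12689 genes were higher in liver by that much and 18.2% in adipose tissue. The liver excess was 5.22 for Akr1c6 (15.54 and 10.32), 4.88 for Srd5a1 (13.23 and 8.36) and 4.85 for Akr1c19 (13.42 and 8.57). It was 4.01 for both Akr1c12 (11.55 and 7.54) and Akr1c14 (11.84 and 7.83). Akr1c13 (14.25 and 11.93) and Hsd11b1 (15.01 and 13.26) had the smallest differences past 2-fold, 2.32 and 1.75. With local backgrounds as deposited the differences were smaller, at 4.06 for Akr1c6, 3.89 for Srd5a1, 4.11 for Akr1c19, 2.93 for Akr1c12 and 3.02 for Akr1c14, and their median over the 8 genes was 2.97 in place of 4.01. The same number of genes, 7, was then at least 2-fold higher in liver.

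Akr1c18 was the exception on normal diet, with levels of 7.07 in liver and 7.0 in adipose tissue. Its levels in 3 of the 4 pools (7.0, 7.07 and 7.18) lay within 0.18 of each other, and the high-fat liver pool stood above them at 9.07. Without scaling between the arrays its normal-diet difference of 0.06 became -0.44, and with local backgrounds as deposited 0.54. On high fat the liver excess was 1.89 for Akr1c18. For Akr1c12, Akr1c13, Akr1c14 and Akr1c19 it was smaller on high fat (3.50, 1.69, 3.12 and 3.74) than on normal diet. For Akr1c6 it grew from 5.22 to 10.70, where the adipose level is near background. For Hsd3b5 only the liver levels, 10.45 on normal diet and 12.34 on high fat, were measured.

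**Figure D3:**
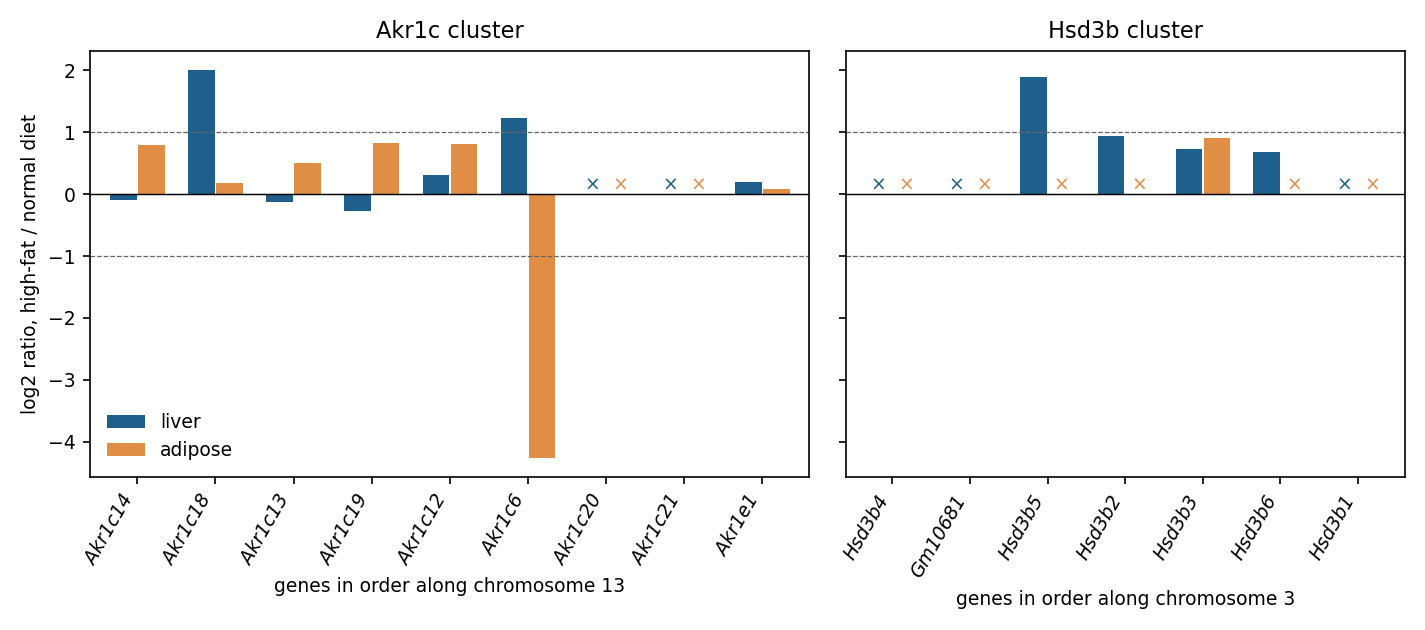
Log2 ratio of the high-fat over the normal-diet pool (y axis) for genes in their order along chromosome 13 (left, the Akr1c cluster) and chromosome 3 (right, the Hsd3b cluster), blue for liver and orange for adipose tissue. Crosses mark genes with no ratio, and dashed lines mark 2-fold. Liver ratios above 2-fold (Akr1c18 and Akr1c6) are not adjacent, while Hsd3b5, Hsd3b2, Hsd3b3 and Hsd3b6 are neighbours with ratios of 0.68 to 1.89 in liver.

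The 7 Akr1c genes of the set lie side by side on chromosome 13, in the order Akr1c14, Akr1c18, Akr1c13, Akr1c19, Akr1c12, Akr1c6 and Akr1c20. Both genes past 2-fold in liver had measured neighbours within 2-fold. Akr1c18 (2.00) lies between Akr1c14 (-0.10) and Akr1c13 (-0.13), and Akr1c6 (1.22) lies beside Akr1c12 (0.30), while the adjacent Akr1c13 and Akr1c19 (-0.28) lay within scanner error of each other. In adipose tissue the run from Akr1c14 to Akr1c12 had ratios from 0.18 to 0.82, and Akr1c6 next to it was at -4.26. Akr1c21, the neighbour beyond Akr1c20, was not above background on either array.

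Around Hsd3b5 on chromosome 3 the picture differed. The 3 genes that follow it belong to the same family, are named here for their position, and had liver ratios above 0: Hsd3b2 at 0.93, Hsd3b3 at 0.73 and Hsd3b6 at 0.68 (scanner error 0.22 each). None passed 2-fold, whereas under median centring, where the median of all genes was 0.32, Hsd3b2 (1.34) and Hsd3b3 (1.35) did. Hsd3b6 dropped to 0.11 with local backgrounds as deposited. The lowest value in the alternatives was 0.42 for Hsd3b2 and 0.64 for Hsd3b3. Over all liver genes, 3.48% had a ratio of at least 0.5. Members of the Akr1c and Hsd3b families are similar in sequence, so a probe can bind a relative's transcript. The probe sequences were not used here, and the ratios of relatives may not be separate observations.

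Among other genes of steroid metabolism none passed 2-fold in liver. These were 8 measured aldo-keto reductases outside the set (median 0.05), 6 other Hsd3b and Srd5a genes (0.44), 16 other Hsd11b and Hsd17b genes and their relatives (0.21), 9 genes of steroid synthesis and its electron supply (0.11), 13 of steroid hydroxylation and conjugation (0.13), and 8 steroid receptors and carriers (0.06). Of 12 markers of adrenal and gonadal steroid-making cells, 5 were measured on the liver array, all within 2-fold (median 0.11, summed level 12.49 and 12.65). These were Cyp17a1, Cyp21a1, Nr5a1, Hsd3b6 and Star. Cyp11a1, Cyp11b1, Cyp11b2, Lhcgr, Mc2r and Hsd3b1 were not above background there, and Insl3 had no matched probe. With median centring a few passed 2-fold upward, 3 at most in any of these lists.

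In adipose tissue the list of steroid hydroxylation and conjugation genes had the median farthest from 0 of the 6 steroid gene lists. Its median over 13 measured genes was -1.49, with 9 past 2-fold downward and 2 upward. With median centring the median was -0.91, with 6 lower and 3 higher. The lowest were Ugt2b5 (-2.64), which adds glucuronic acid, and Cyp2d9 (-2.63), a male-biased steroid hydroxylase. The highest were Ugt2b34 (2.61) and Sult2b1 (2.56), a sterol sulfotransferase. Hepatocyte markers (median -4.06) and small intestine markers (5.01) moved apart on the same array, and their part in these ratios was not tested. Among the other Hsd11b and Hsd17b genes, Hsd17b2 (1.46), which inactivates estradiol and testosterone, and Rdh9 (1.04) were higher and Hsd17b10 (-1.03) lower, the last not with median centring (0.12). No gene of steroid synthesis, no receptor or carrier, and no other Hsd3b or Srd5a gene passed 2-fold, except that 2, 1 and 2 of these lists' genes did upward with median centring. In the last list 1 gene, Hsd3b3 (0.91 as reported), also passed under the software's log ratio and under a normexp offset of 10. Among 7 measured aldo-keto reductases outside the set the median was 0.08, and with median centring 4 were at least 2-fold higher. In that list the reductase Akr1b7 was lower by a log2 ratio of -3.0 (scanner error 0.35), from a level of 18.63 to one of 15.63. The ratio was between -3.06 and -1.71 in the alternatives. Its normal-diet level was close to that of the adipocyte marker Cfd (18.73, log2 ratio -1.7) and above the summed male reproductive tract markers (16.39). Male reproductive tract markers were lower in 5 of 6 on the same array and higher in 1 (median -3.09). Their part in the Akr1b7 ratio was not tested. Markers of adrenal and gonadal steroid-making cells were within 2-fold in all 5 measured of 12 (summed level 12.77 and 12.3), and Cyp11b1 and Cyp11b2 were not above background.

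**Figure D4:**
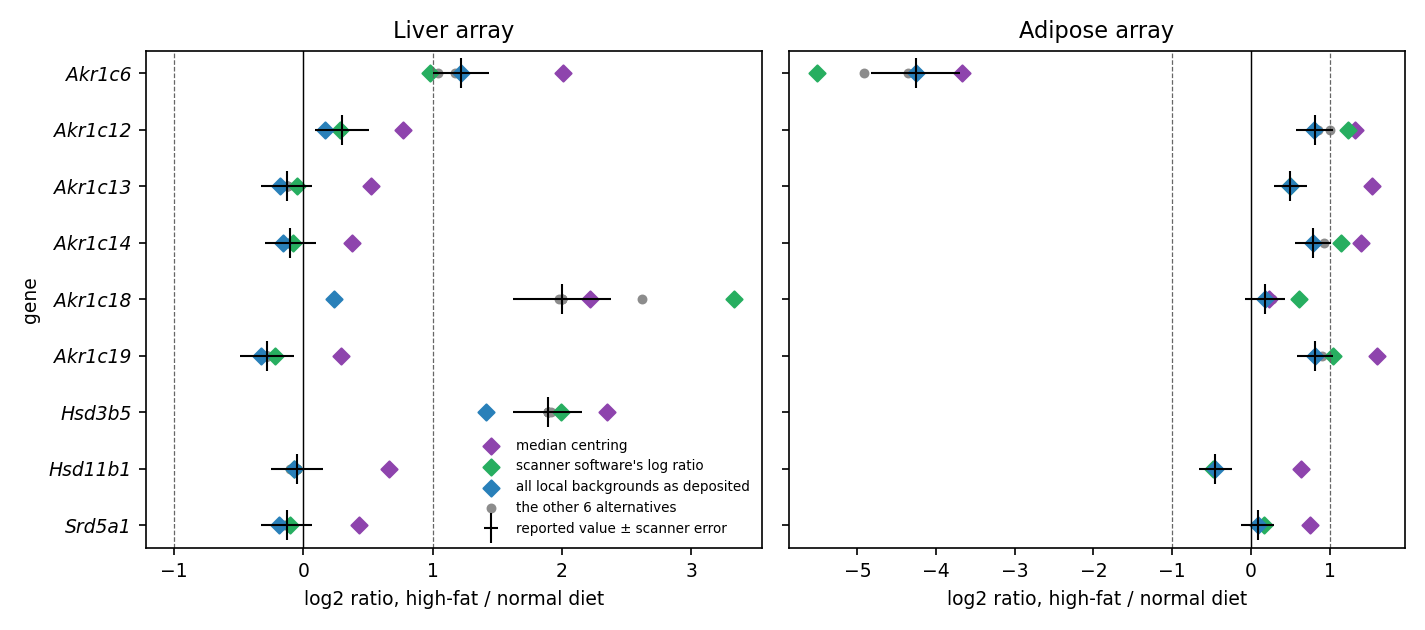
Log2 ratio of the high-fat over the normal-diet pool (x axis) of each steroid-converting enzyme (y axis) on the liver array (left) and the adipose array (right). The black mark with its bar is the reported value ± scanner error, diamonds are 3 alternatives and grey points the other 6. Akr1c18 in liver spans 0.24 to 3.33, Hsd3b5 stays between 1.41 and 2.35, and Akr1c6 in adipose tissue stays between -5.51 and -3.67.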

How the data were processed

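Total RNA pooled by diet was hybridized to 2-colour Agilent arrays, 1 per tissue. The deposited files hold pixel intensity medians per spot, a background median, flags, and the scanner software's log10 ratio of red over green with its error, per the file headers. The submitters' processing notes name Feature Extraction 8.5.1.1, while the file headers name 11.5.1.1 and protocol GE2_1105_Oct12.

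Background medians marked as outliers by the software were replaced by the channel's median. Signals were corrected with normexp (offset 50) then brought to a common scale by loess, in which control spots had weight 0 (limma 3.58.1, R 4.3.3), which was tested on simulated data. The simulated ratios were put only into brighter spots of the liver array. The simulation therefore does not cover dim probes, the adipose array or a ratio as large as that of Akr1c6 there. Levels between tissues are channel levels after Aquantile, compared on normal diet under 6 alternatives. Outlier spots were left out, spots of a probe were averaged, and a gene's probes were averaged. A gene is measured where a probe is well above background in both channels, and named by transcript accession. Scanner error is the software's error of the log10 ratio turned to log2. With 1 array per tissue no test was possible, and a 2-fold size was used. The number of arrays limits the precision. The genes and lists were chosen with earlier results of these data known. Named outside the set were at most 4 genes per list and array past 2-fold with the largest ratios. H6pd and the neighbours along the chromosome were added for their role or place, and some cell type markers to describe their lists. Alternatives changed the background, offset, normalization, filter and probe choice.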

Additional observations from a re-analysis of the deposited data

Results flagged for a closer look

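Akr1c6 moved in opposite directions on the arrays, higher in the high-fat liver pool (log2 ratio 1.22) and lower in the high-fat adipose pool (-4.26). The liver ratio minus the adipose ratio was 5.48. With 1 array per tissue this difference was not tested, and the 10 of 15 hepatocyte markers that were at least 2-fold lower on the adipose array are given beside it without weighing their part.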

How the results depend on the processing

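No paired analysis was possible because each tissue has 1 array and its values come from no test. Each array was recomputed under 9 alternatives. Those on the filter and the choice of probe could not move the ratio of a measured enzyme, since each has 1 probe above background in both channels. With median centring the median of the enzymes became 0.66 in liver and 1.03 in adipose tissue, where the median of all genes became 0.32 and 0.69, and 94.1% and 87.2% of genes past 2-fold were then higher against 45.9% and 45.1% as reported. The number of enzymes at least 2-fold higher in adipose tissue became 3 under the software's log ratio and 4 under median centring. In liver it became 2 with local backgrounds as deposited, which took Akr1c18 to 0.24, and 2 with the software's log ratio, which took Akr1c6 to 0.98. The cause was not tested. Over all liver genes, 67 higher and 79 lower as reported became 20 and 35 with backgrounds as deposited, 138 and 157 with the software's ratio, 445 and 28 with median centring, 116 and 79 with probes above background in 1 channel, and 103 and 78 with no filter. In adipose tissue, 605 and 735 became 901 and 1230 with the software's ratio and 4208 and 616 with median centring. For levels between tissues, 6 alternatives were run, and backgrounds as deposited took the median liver excess from 4.01 to 2.97. Signal over background limits Akr1c18 in liver on normal diet and Akr1c6 in adipose tissue on high fat.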
